A study of Mus musculus with 14 samples.

Results

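Of the 43346 genes in the deposited count table, 10 genes of the brain endothelium and the blood-brain barrier were taken by name and described in every mouse. They were 4 junction and adhesion genes (Cldn5, Ocln, Cdh5 and Pecam1), 3 receptors (Flt1, Kdr and Tek) and 3 transporters (Abcb1a, Slco1a4 and Mfsd2a). RNA was sequenced from a slice of hippocampus and cortex of 14 female mice at 23 months of age, all of the strain C57BL/6;SJL-Tg. The study asked what long-term treatment with CP2, an inhibitor of mitochondrial complex I, does in mice that already have symptoms of an Alzheimer's disease model. The NTG group held 4 non-transgenic littermates (mice 7 to 10), and the APP/PS1 group held 5 double transgenic mice with familial mutations in APP and PS1 (mice 16 to 20), labelled +/+. Both were labelled non-treated, and the study's protocol gives their drinking water as vehicle with 0.1% PEG. The third group held 5 APP/PS1 mice (mice 21 to 25) that drank CP2 at 25 mg/kg/day in the same vehicle from 9 months of age. The tissue was a mixture of all brain cell types. NTG mice given CP2 were not analysed here.

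Brain endothelial cells line the vessels and form the blood-brain barrier: tight junctions seal the gaps between cells, and transporters in their membranes carry nutrients in and drugs out. Vascular endothelial growth factor and the angiopoietins, which act through the receptors Flt1, Kdr and Tek, keep the endothelium alive and set its growth and permeability. Pericytes and smooth muscle cells wrap the vessels, and astrocyte endfeet cover them. In bulk tissue, fewer cells of a type and less RNA per cell cannot be told apart, and this holds for every level below.

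Each library held between 70548781 and 106235625 gene counts, so the lowest count of the 10 genes in any mouse, that of Ocln in APP/PS1 mouse 16, was still 597. No listed marker of neurons, oligodendrocytes, microglia or vessels had a count of 0 when summed over all mice. Levels are given in CPM, counts scaled to library size with TMM factors, and the differences as log2 fold changes with their standard error (SE) and the adjusted p of edgeR's quasi-likelihood test with Benjamini-Hochberg adjustment over all genes tested.

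The receptors Flt1, Kdr and Tek were the group of the 10 genes that differed together in one comparison, so the 250 bases before their start sites are shown, with that of Cldn5, the most abundant of the 10, for contrast. The sequences are RefSeq's on build GRCm38.p6, in the direction of the gene. 8 of the 10 genes had a promoter in the table, and Cdh5 and Pecam1 did not. Capitals mark AGGAAG and TATAAA.
Flt1, chr5:147726012-147726261, minus strand: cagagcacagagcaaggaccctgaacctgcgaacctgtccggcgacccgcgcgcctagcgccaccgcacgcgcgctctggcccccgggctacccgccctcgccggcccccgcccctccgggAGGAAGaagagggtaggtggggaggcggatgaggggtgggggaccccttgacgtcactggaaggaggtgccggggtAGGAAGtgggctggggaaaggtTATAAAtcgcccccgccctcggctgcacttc
Kdr, chr5:75978456-75978705, minus strand: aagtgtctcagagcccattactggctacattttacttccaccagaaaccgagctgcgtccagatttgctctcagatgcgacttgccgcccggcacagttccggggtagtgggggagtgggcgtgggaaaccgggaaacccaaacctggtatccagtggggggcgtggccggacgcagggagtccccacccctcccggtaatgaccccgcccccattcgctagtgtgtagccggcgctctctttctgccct
Tek, chr4:94739039-94739288, plus strand: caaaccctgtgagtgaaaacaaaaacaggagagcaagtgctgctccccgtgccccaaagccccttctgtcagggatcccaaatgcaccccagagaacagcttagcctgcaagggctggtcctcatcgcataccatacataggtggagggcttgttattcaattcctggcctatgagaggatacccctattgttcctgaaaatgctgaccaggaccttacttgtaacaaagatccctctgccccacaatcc
Cldn5, chr16:18776597-18776846, plus strand: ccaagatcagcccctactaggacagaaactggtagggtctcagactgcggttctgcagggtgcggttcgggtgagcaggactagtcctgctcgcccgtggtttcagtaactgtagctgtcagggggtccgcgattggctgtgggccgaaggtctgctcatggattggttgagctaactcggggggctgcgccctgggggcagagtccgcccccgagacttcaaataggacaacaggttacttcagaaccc
5 short motifs were searched on both strands. They were CCGGAAG and AGGAAG for ETS factors, ACAATG for SOX factors, CTTTGA for TCF/LEF factors and TATAAA, the TATA box. CCGGAAG and AGGAAG share their last 5 letters but cannot match at the same place, and no matches overlapped. The Flt1 promoter held AGGAAG at 129 to 124 and at 53 to 48 bases before the start, and TATAAA at 31 to 26 bases before it. AGGAAG was present in 29.5% and TATAAA in 12.4% of all 32851 RefSeq promoters of this length. Kdr, Tek and Cldn5 held none of the 5 exact strings, and shorter or variant forms of these sites were not searched. The Flt1 window had 23 CpG dinucleotides, the Kdr window 16 and the Cldn5 window 12, against 2 in the Tek window and a median of 6 over all promoters. Flt1 and Kdr were thus above the CpG median and Tek was below it. The share of G and C was 70.4% in the Flt1, 61.6% in the Kdr and 51.2% in the Tek window. These matches describe the letters only.

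On the deposited table's coordinates (mm10), the receptors lie at chr5:147561604-147726011 (Flt1, ENSMUSG00000029648), chr5:75932827-75978458 (Kdr, ENSMUSG00000062960) and chr4:94739289-94874976 (Tek, ENSMUSG00000006386). The junction and adhesion genes lie at chr16:18776847-18778260 (Cldn5, ENSMUSG00000041378), chr13:100496507-100552718 (Ocln, ENSMUSG00000021638), chr8:104101625-104144502 (Cdh5, ENSMUSG00000031871) and chr11:106654217-106750628 (Pecam1, ENSMUSG00000020717). The transporters lie at chr5:8660077-8748575 (Abcb1a, ENSMUSG00000040584), chr6:141805440-141856199 (Slco1a4, ENSMUSG00000030237) and chr4:122946850-122961188 (Mfsd2a, ENSMUSG00000028655). Each value counts reads over the exons of the gene. Abcb1a alone shares exonic bases with another annotated gene, 553 bases with Gm42686 on the opposite strand, so its count may hold reads of that gene.

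Per length, the tight junction gene Cldn5 was the most abundant of the 10, with a median of 16.8 RPKM over the 14 mice, in the authors' RPKM values, which scale reads by gene length and by library size. Slco1a4 followed at 8.56 RPKM, then Mfsd2a at 5.45, Abcb1a at 4.53 and Flt1 at 4.30 RPKM. Pecam1 (2.54 RPKM), Cdh5 (2.53), Tek (2.09), Ocln (1.76) and Kdr (1.63) were lower. Cldn5 exceeded Slco1a4 and Slco1a4 exceeded Mfsd2a in 14 of 14 mice, and Flt1 exceeded Pecam1 and Cdh5 exceeded Tek in 14 of 14. Mfsd2a exceeded Abcb1a, and Tek exceeded Ocln, in 11 of 14. The order of the other neighbours was not stable: Abcb1a exceeded Flt1 in 6 of 14 mice, Pecam1 exceeded Cdh5 in 3, and Ocln exceeded Kdr in 6. Flt1 was thus about as abundant per length as the efflux pump Abcb1a, while the other VEGF receptor, Kdr, was the lowest of the 10 by its median. These orders rest on the gene lengths of the deposited table. Slco1a4 has 3851 bases there and 6414 exonic bases in the gene annotation used to look for overlapping genes, and the longer length would lower its level.

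In APP/PS1 mice against NTG mice, 1 of the 10 genes passed the test: Pecam1 was 1.32-fold higher. Over all 16417 genes tested, 5.68% passed the adjusted threshold. At an unadjusted p under 0.05, 2 of the 10 passed, Pecam1 and Slco1a4, against 18.7% of all genes. In CP2-treated against vehicle-treated mice none of the 10 passed, and 1, Mfsd2a, had an unadjusted p under 0.05, where 0.00609% of all 16407 genes passed with adjustment and 6.55% without. DESeq2 and limma-voom also called 0 of the 10 there. In CP2-treated APP/PS1 mice against NTG mice, 5 of the 10 passed, all higher: Flt1, Kdr, Tek, Pecam1 and Slco1a4, where 6.02% of all 16416 genes passed. The CP2-treated and NTG mice did not overlap for 3 of the 10, Flt1, Kdr and Pecam1, against 9.61% of all genes, and 6 of the 10 had an unadjusted p under 0.05, against 20.2%. No gene of the 10 was free of overlap between CP2-treated and vehicle-treated mice, where 1.14% of all genes were. The median log2 difference of the 10 genes was 0.16, 0.02 and 0.27 in the 3 comparisons in this order, and that of all genes tested was -0.0042, -0.0060 and -0.0015. The first and the third comparison share the NTG mice, and the first and second share the vehicle-treated APP/PS1 mice, so they are set side by side and not counted as separate evidence.

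**Figure D1:**
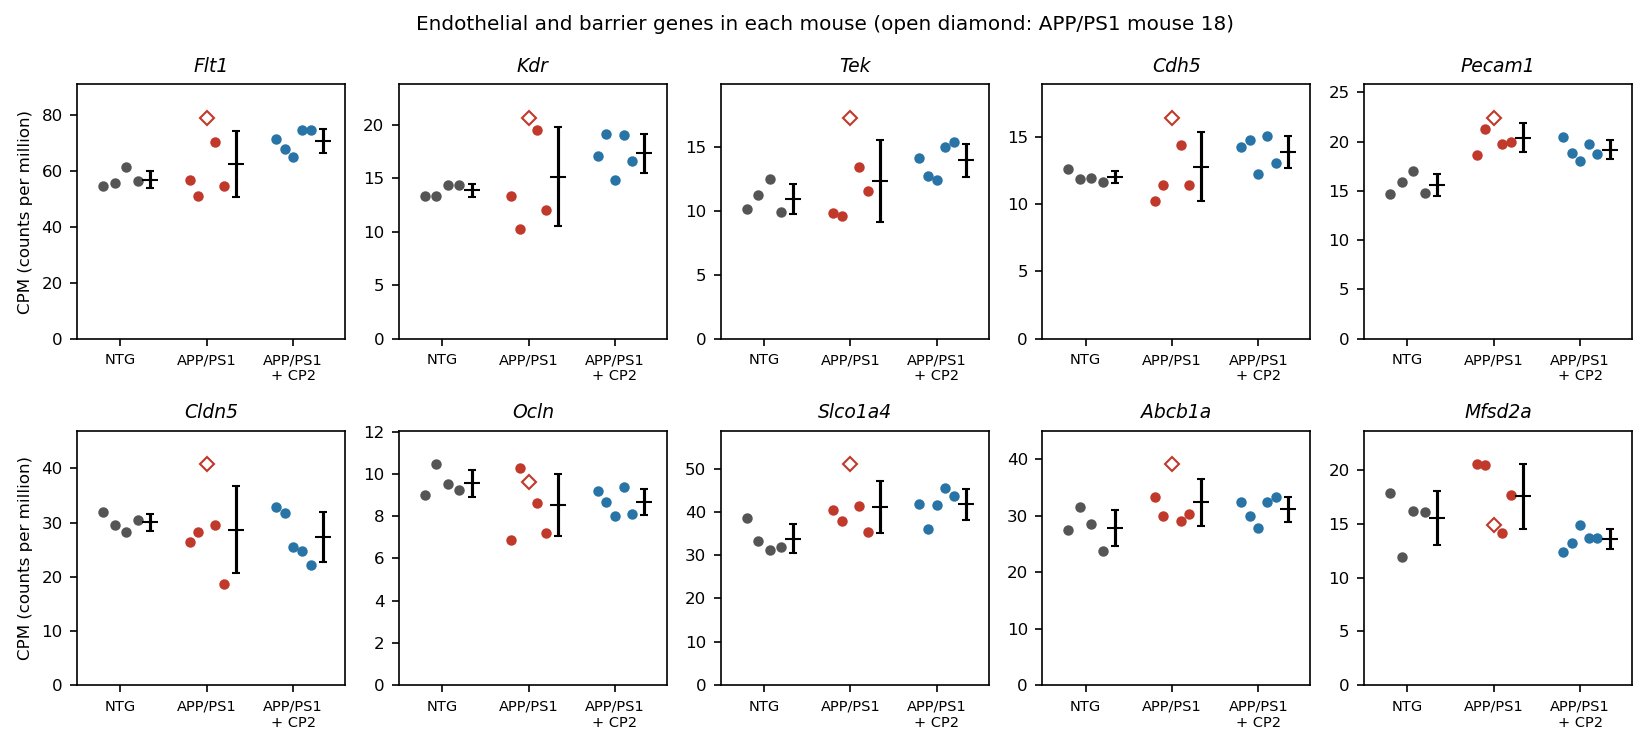
Level of each of the 10 genes in CPM (vertical axis, from 0) in each mouse of the NTG (n = 4), APP/PS1 (n = 5) and CP2-treated APP/PS1 (n = 5) groups. Points are mice, the bar beside them is the mean ± SD, and the open diamond is APP/PS1 mouse 18, which was the highest of the 14 mice for 8 of the 10 genes. The vehicle-treated APP/PS1 points of Flt1, Kdr and Tek spread over those of both other groups.

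Flt1, which encodes VEGF receptor 1, was measured at 54.5, 55.5, 61.3 and 56.3 CPM in the 4 NTG mice. In the 5 APP/PS1 mice it was 56.9, 51.1, 79.1, 70.4 and 54.5 CPM, and in the 5 CP2-treated mice 71.4, 67.9, 64.9, 74.8 and 74.5 CPM. Each CP2-treated mouse was above each NTG mouse, while the APP/PS1 mice ran from below the lowest NTG mouse to the highest value of all. Flt1 was 1.25-fold higher in CP2-treated APP/PS1 than in NTG mice, a log2 difference of 0.33 ± 0.06 (SE, adjusted p = 0.00629). Against NTG the vehicle-treated APP/PS1 mice differed by 0.14 ± 0.12 (SE, adjusted p = 0.612), and CP2-treated differed from vehicle-treated mice by 0.18 ± 0.11 (SE, 95% interval -0.06 to 0.43, adjusted p = 0.760). That Flt1 passed in one comparison with NTG and not in the other is therefore not shown to be a difference between the treated and the untreated transgenic mice.

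Kdr encodes VEGF receptor 2, the main signalling receptor for VEGF-A. Its level was 13.3, 13.3, 14.4 and 14.4 CPM in NTG mice, 13.3, 10.3, 20.6, 19.5 and 11.98 in APP/PS1 mice and 17.02, 19.1, 14.8, 19.02 and 16.6 in CP2-treated mice. The CP2-treated mice again lay above all NTG mice, by a small margin for mouse 23, and the APP/PS1 mice covered a range wider than both. The log2 difference between APP/PS1 mice on CP2 and NTG mice was 0.34 ± 0.08 (SE, adjusted p = 0.0334). Between APP/PS1 and NTG mice it was 0.14 ± 0.20 (SE, adjusted p = 0.774), and between CP2-treated and vehicle-treated mice 0.19 ± 0.18 (SE, 95% interval -0.21 to 0.59, adjusted p = 0.830).

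Tek, the receptor of the angiopoietins (Tie2), was at 10.2, 11.3, 12.5 and 9.94 CPM in NTG mice. The APP/PS1 mice had 9.81, 9.59, 17.3, 13.4 and 11.5 CPM and the CP2-treated mice 14.2, 12.8, 12.4, 14.98 and 15.4 CPM. The lowest CP2-treated mouse was just under the highest NTG mouse, so these groups overlapped. Tek differed between APP/PS1 mice on CP2 and NTG mice by 0.36 ± 0.09 (SE, adjusted p = 0.0456), between APP/PS1 and NTG mice by 0.18 ± 0.17 (SE, adjusted p = 0.649) and between CP2-treated and vehicle-treated mice by 0.18 ± 0.15 (SE, 95% interval -0.16 to 0.51, adjusted p = 0.817). The 3 receptors had a spread that was wide in APP/PS1 mice. The SD of Flt1 was 3.03 CPM in NTG, 11.9 in APP/PS1 and 4.28 in CP2-treated mice, and that of Kdr 0.612, 4.63 and 1.80 CPM. The spread was not particular to the receptors, and the SD of each other gene was also largest in APP/PS1 mice. That of Cldn5 was 1.58, 7.96 and 4.63 CPM and that of Cdh5 0.420, 2.56 and 1.20 CPM in the same order.

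These calls rested on few mice and on how the groups were fitted. With all 3 groups in one fit, which lets the spread of the vehicle-treated APP/PS1 mice enter the test, Flt1 lost its call (adjusted p = 0.123) and 1 of the 10 genes, Pecam1, passed between APP/PS1 mice on CP2 and NTG mice. Leaving out 1 mouse at a time left between 1 gene (without NTG mouse 10) and 5 genes (without CP2-treated mouse 23), and 2 without NTG mouse 8, CP2-treated mouse 21 or CP2-treated mouse 24. Of 17 alternatives, Flt1 passed in 16, Pecam1 in 16, Kdr in 9, Slco1a4 in 8 and Tek in 6.

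Pecam1 encodes CD31, an adhesion molecule at endothelial cell contacts that platelets and leukocytes also carry. It was at 14.7, 15.9, 17.01 and 14.7 CPM in NTG mice, 18.6, 21.3, 22.4, 19.7 and 19.9 in APP/PS1 mice and 20.5, 18.8, 18.04, 19.8 and 18.8 in CP2-treated mice. All 10 transgenic mice were above all 4 NTG mice, and of the 10 genes Pecam1 alone had no overlap between APP/PS1 and NTG mice, where 5.93% of all genes tested lay wholly higher. The log2 difference was 0.40 ± 0.07 (SE, adjusted p = 0.00965) in APP/PS1 mice and 0.31 ± 0.06 (SE, adjusted p = 0.0160) in CP2-treated APP/PS1 mice, both against NTG mice. CP2-treated and vehicle-treated mice differed by -0.09 ± 0.06 (SE, 95% interval -0.22 to 0.04, adjusted p = 0.781). The first call stood in 17 of 17 alternatives, and the second was lost without NTG mouse 10 (adjusted p = 0.0597). Microglial genes moved with Pecam1: the 8 listed microglial genes summed to between 349 and 367 CPM in NTG, 684 and 950 in APP/PS1 and 553 and 852 in CP2-treated mice, and 8 of 8 passed in APP/PS1 against NTG. Their part in the Pecam1 difference was not tested.

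Cdh5 encodes VE-cadherin, the adherens junction protein specific to endothelium. It was at 12.6, 11.9, 11.97 and 11.7 CPM in NTG mice, 10.3, 11.5, 16.5, 14.4 and 11.4 in APP/PS1 mice and 14.3, 14.8, 12.3, 15.1 and 13.1 in CP2-treated mice. CP2-treated and NTG mice overlapped by mouse 23 alone, and the difference was 0.22 ± 0.07 (SE, adjusted p = 0.117). It passed when mouse 23 was left out (adjusted p = 0.0367). APP/PS1 and NTG mice differed by 0.10 ± 0.13 (SE, adjusted p = 0.763), and CP2-treated and vehicle-treated mice by 0.12 ± 0.12 (SE, 95% interval -0.15 to 0.40, adjusted p = 0.842).

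The estimates of the tight junction genes against NTG were below 0 in both transgenic groups, neither gene passed in any comparison, and that of Cldn5 in APP/PS1 mice turned above 0 without mouse 20. Cldn5, which encodes the main claudin of the barrier, was at 31.97, 29.6, 28.2 and 30.6 CPM in NTG mice, 26.4, 28.3, 40.8, 29.5 and 18.6 in APP/PS1 mice and 32.9, 31.7, 25.5, 24.7 and 22.2 in CP2-treated mice. The APP/PS1 group held both the lowest and the highest of the 14 values, mice 20 and 18. The log2 difference was -0.06 ± 0.18 (SE, adjusted p = 0.898) in APP/PS1 against NTG, -0.07 ± 0.18 (SE, 95% interval -0.46 to 0.33, adjusted p = 0.949) in CP2-treated against vehicle-treated and -0.12 ± 0.11 (SE, adjusted p = 0.589) in CP2-treated APP/PS1 against NTG mice. Ocln, the tight junction protein occludin, was at 9.01, 10.5, 9.54 and 9.22 CPM in NTG mice, 6.87, 10.3, 9.63, 8.65 and 7.21 in APP/PS1 mice and 9.19, 8.67, 7.99, 9.38 and 8.13 in CP2-treated mice. The groups overlapped, and the differences were -0.16 ± 0.13 (SE, adjusted p = 0.571), 0.03 ± 0.11 (SE, 95% interval -0.22 to 0.28, adjusted p = 0.967) and -0.13 ± 0.08 (SE, adjusted p = 0.400) in the same order.

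Slco1a4 encodes an organic anion transporter that is abundant at the mouse barrier. It was at 38.6, 33.3, 31.3 and 31.8 CPM in NTG mice, 40.4, 37.9, 51.04, 41.3 and 35.4 in APP/PS1 mice and 41.8, 36.1, 41.7, 45.6 and 43.6 in CP2-treated mice. NTG mouse 7 reached into both transgenic groups, and the other 3 NTG mice lay below all 10 transgenic mice. CP2-treated APP/PS1 mice differed from NTG mice by 0.32 ± 0.08 (SE, adjusted p = 0.0409). The vehicle-treated APP/PS1 mice differed from NTG mice by 0.29 ± 0.11 (SE, adjusted p = 0.164), with an unadjusted p of 0.0201, and CP2-treated from vehicle-treated mice by 0.02 ± 0.09 (SE, 95% interval -0.19 to 0.23, adjusted p = 0.968). The point estimate against NTG was thus near 0.3 in both transgenic groups, and it passed in 1 of them.

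Abcb1a encodes P-glycoprotein, the pump that returns many drugs to the blood. Its levels were 27.5, 31.5, 28.4 and 23.7 CPM in NTG, 33.3, 29.9, 39.1, 29.1 and 30.3 in APP/PS1 and 32.4, 29.9, 27.9, 32.4 and 33.2 in CP2-treated mice. The groups overlapped and no comparison passed, with 0.23 ± 0.10 (SE, adjusted p = 0.276) in APP/PS1 against NTG, -0.05 ± 0.08 (SE, 95% interval -0.24 to 0.13, adjusted p = 0.898) in CP2-treated against vehicle-treated and 0.18 ± 0.08 (SE, adjusted p = 0.265) in CP2-treated APP/PS1 against NTG mice.

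Mfsd2a encodes the carrier of docosahexaenoic acid as lysophospholipid, which also keeps vesicle transport across the endothelium low. It was at 17.9, 11.96, 16.2 and 16.1 CPM in NTG mice, 20.6, 20.5, 14.9, 14.1 and 17.7 in APP/PS1 mice and 12.4, 13.3, 14.9, 13.7 and 13.7 in CP2-treated mice. Mfsd2a did not follow the receptors from mouse to mouse: mouse 18, the highest for them, was among the lower APP/PS1 mice here, and the CP2-treated group was the narrowest and lowest by its mean. CP2-treated differed from vehicle-treated mice by -0.37 ± 0.11 (SE, 95% interval -0.61 to -0.13, adjusted p = 0.744), the largest difference of the 10 genes in this comparison, with an unadjusted p of 0.00601 that the adjustment over all genes did not keep. With the share of the transcripts Yam1 and AY036118 as a covariate the unadjusted p no longer passed. APP/PS1 and NTG mice differed by 0.18 ± 0.14 (SE, adjusted p = 0.561), and APP/PS1 mice on CP2 and NTG mice by -0.18 ± 0.10 (SE, adjusted p = 0.353).

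**Figure D2:**
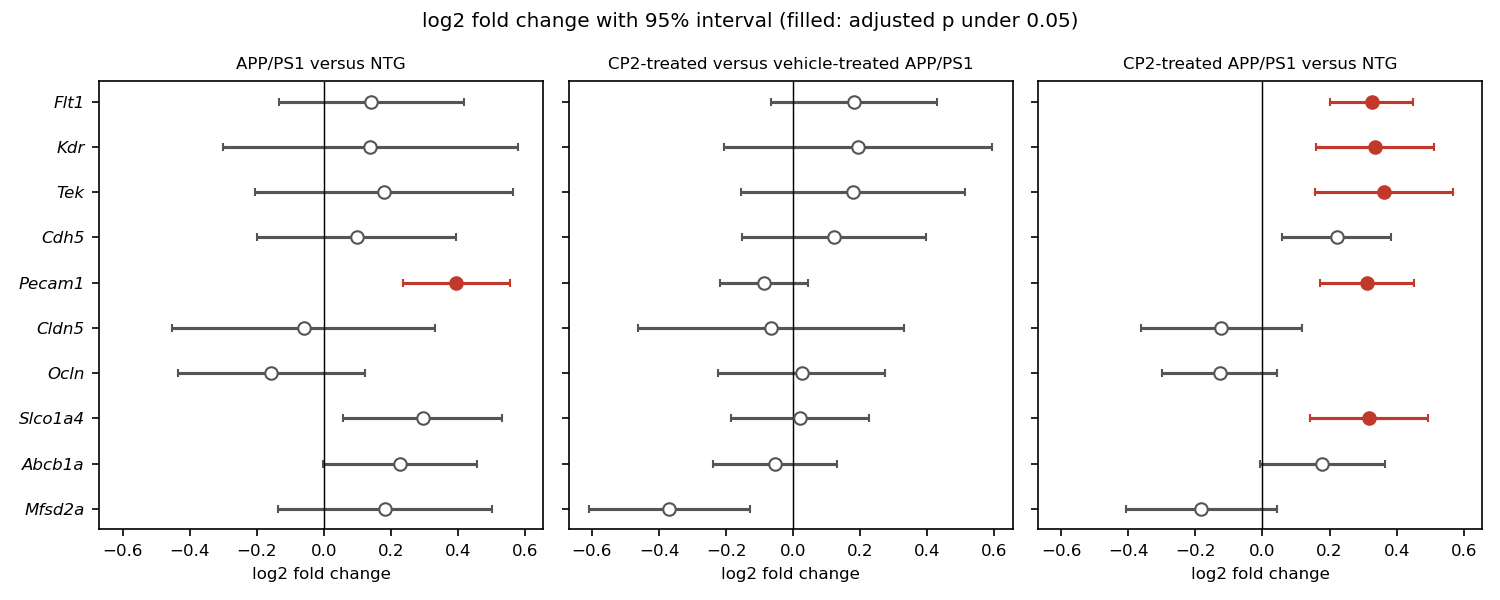
log2 fold change (horizontal axis) of each of the 10 genes with its 95% interval in the 3 comparisons, from edgeR. Filled red points have an adjusted p under 0.05: Pecam1 in APP/PS1 against NTG, and Flt1, Kdr, Tek, Pecam1 and Slco1a4 in CP2-treated APP/PS1 against NTG. The intervals of CP2-treated against vehicle-treated mice include 0 for 9 genes, and that of Mfsd2a runs from -0.61 to -0.13.

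1 mouse of the APP/PS1 group held most of the highest values. By Dixon's rule, which sets the gap to the next value against the group's range, no value of the 10 genes was an outlier. Mouse 18 was the highest of the 14 mice for 8 of the 10 genes, all but Ocln and Mfsd2a, and its library was the deepest. Within its group it also had the highest summed CPM of every other endothelial and barrier list except the transporters, where mouse 19 was higher. The same held for the pericyte, smooth muscle, fibroblast, basement membrane and oligodendrocyte lists. Leaving out mouse 18, picked for its high values, had to raise the CP2-treated against vehicle-treated estimates of Flt1, Kdr and Tek. Without it, these were 0.28 in Flt1, 0.33 in Kdr and 0.33 in Tek on the log2 scale, none past the adjusted threshold. In that fit 3 of the 10 genes had an unadjusted p under 0.05, as did 1094 of all 16436 genes tested. In the CP2-treated group mouse 23 was the lowest for 7 of the 10 genes, and Yam1 and AY036118, transcripts whose share differed between libraries, took 7.40% of its counts against 4.49 to 4.88% in the other 4. Their part in its lower values was not tested.

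The ligands Vegfa and Apln fell in both transgenic groups against NTG mice. Vegfa, the ligand of Flt1 and Kdr, was at 62.3, 61.3, 65.6 and 60.5 CPM in NTG mice, 50.7, 30.9, 46.5, 42.8 and 45.8 in APP/PS1 mice and 45.5, 49.4, 52.3, 52.2 and 55.7 in CP2-treated mice, so all 10 transgenic mice were below all NTG mice. It fell by 0.52 ± 0.12 on the log2 scale (SE, adjusted p = 0.0312) in APP/PS1 mice and by 0.28 ± 0.06 on the log2 scale (SE, adjusted p = 0.0146) in CP2-treated APP/PS1 mice against NTG. The first call stood in 9 of 17 alternatives and was lost without any 1 NTG mouse, without APP/PS1 mouse 18, 19 or 20, and with the share of Yam1 and AY036118 as a covariate (adjusted p = 0.177). The second stood in 15 of 17 and was lost with all 3 groups in one edgeR fit (adjusted p = 0.179) and without NTG mouse 9 (adjusted p = 0.0528). Apln, the ligand apelin of a vascular receptor, was at 27.5, 27.5, 27.9 and 32.5 CPM in NTG mice, 14.3, 10.99, 15.95, 16.8 and 12.4 in APP/PS1 mice and 16.04, 15.2, 19.5, 16.8 and 17.2 in CP2-treated mice. It fell by 1.02 ± 0.12 on the log2 scale (SE, adjusted p = 0.00110) and by 0.76 ± 0.08 on the log2 scale (SE, adjusted p = 0.000365) in these comparisons, with no overlap in either, and both calls stood in 17 of 17 alternatives. Neurons and astrocytes also make Vegfa. The 6 listed neuronal genes did not pass in any comparison, with median log2 differences between -0.05 and 0.01. The 7 listed genes of astrocyte endfeet summed to between 3828 and 4597 CPM in NTG, 3318 and 3760 in APP/PS1 and 3600 and 3859 in CP2-treated mice, so all 5 APP/PS1 mice were below all NTG mice while the CP2-treated range overlapped with that of NTG mice. Most of this sum was 1 gene, Slc1a2, with a mean of 3173 CPM in NTG and 2375 in APP/PS1 mice. Against NTG, 3 of the 7 genes had estimates above 0 in APP/PS1 mice, among them Aqp4. The part of neuronal and astrocyte genes in the Vegfa difference was not tested.

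**Figure D3:**
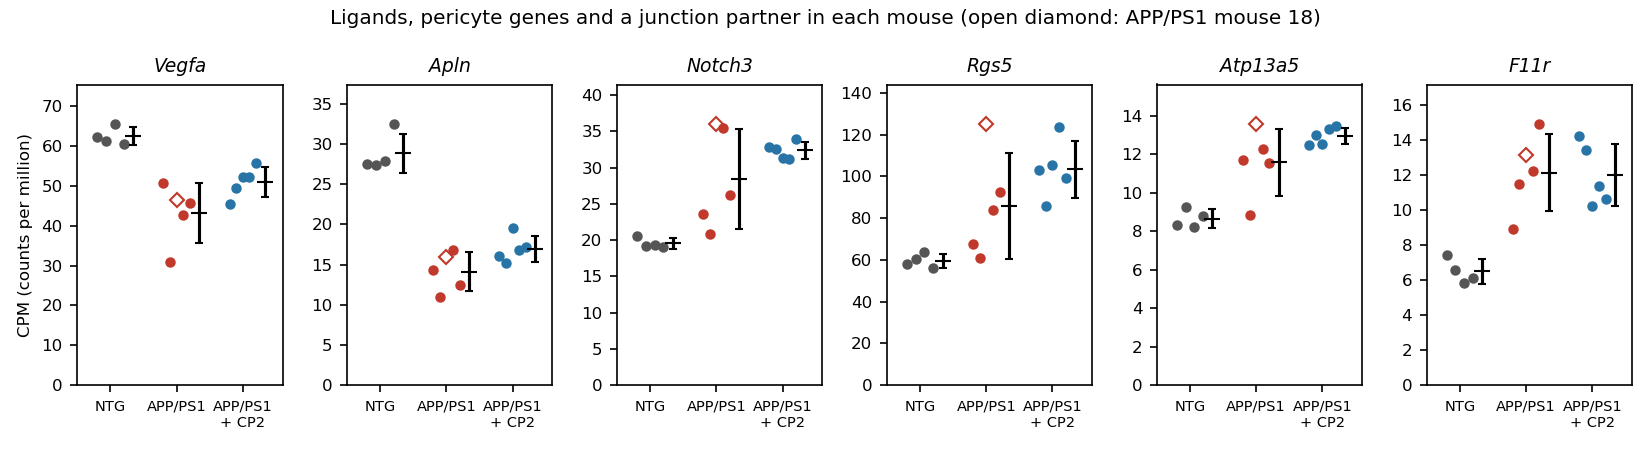
Level in CPM (vertical axis, from 0) of the ligands Vegfa and Apln, the pericyte genes Notch3, Rgs5 and Atp13a5, and the junction partner F11r in each mouse. Points are mice, bars are the mean ± SD (n = 4, 5 and 5), and the open diamond is APP/PS1 mouse 18. Both ligands were lower, and Notch3 and F11r higher, in each transgenic mouse than in any NTG mouse.

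The lists below hold other genes than the 10, and a change named for APP/PS1 or for CP2-treated mice is against NTG mice unless another group is given. Over all genes tested, 5.68% passed in APP/PS1 mice and 6.02% in CP2-treated APP/PS1 mice. A single call on a short list is near these shares and is not read as a result about that list. Of 17 tested genes of the VEGF and angiopoietin list, 1 rose and 2 fell in APP/PS1 mice against NTG, none passed between CP2-treated and vehicle-treated mice, and 3 rose and 2 fell in CP2-treated APP/PS1 mice against NTG. Acvrl1, the endothelial TGF-beta receptor ALK1, rose in both, by 0.65 ± 0.13 (adjusted p = 0.0180) and 0.57 ± 0.08 (adjusted p = 0.00251). Eng, its co-receptor endoglin, and Ptprb, the phosphatase that restrains Tek, passed in CP2-treated mice, by 0.52 ± 0.11 (adjusted p = 0.0185) and 0.38 ± 0.09 (adjusted p = 0.0259). Their values in vehicle-treated APP/PS1 mice against NTG were 0.40 ± 0.12 (adjusted p = 0.0955) and 0.17 ± 0.13 (adjusted p = 0.549). The Acvrl1 calls stood in 13 and 17 of 17 alternatives, the Eng call in 15 and the Ptprb call in 11. The first Acvrl1 call and the Ptprb call were lost with the share of Yam1 and AY036118 as a covariate. The Ptprb call was also lost with all 3 groups in one edgeR fit.

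Of 12 tested junction partners, 1 passed in each comparison with NTG, F11r, which encodes the junctional adhesion molecule A. F11r was at 7.44, 6.59, 5.84 and 6.10 CPM in NTG mice, 8.93, 11.5, 13.1, 12.2 and 14.9 in APP/PS1 mice and 14.2, 13.4, 10.2, 11.4 and 10.6 in CP2-treated mice. It rose by 0.91 ± 0.14 on the log2 scale (SE, adjusted p = 0.00447) and by 0.90 ± 0.12 on the log2 scale (SE, adjusted p = 0.00147). Platelets and myeloid cells also carry this protein, and the microglial sums given beside Pecam1 rose in the same mice; their part was not tested. Tjp1, the scaffold ZO-1, differed by 0.02 ± 0.05 (adjusted p = 0.852) in APP/PS1 mice and Esam, an endothelial adhesion molecule, by 0.24 ± 0.09 (adjusted p = 0.184). The median of the 12 genes was 0.04 in APP/PS1 and 0.06 in CP2-treated mice, both against NTG.

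Of 17 other barrier transporters tested, 2 rose in APP/PS1 mice (Abcc4 and Slco2b1) and 6 in CP2-treated APP/PS1 mice (Abcc4, Slco2b1, Slc38a5, Slc22a8, Tfrc and Slc7a1), both against NTG, and none fell. Abcc4 passed narrowly in APP/PS1 mice (adjusted p = 0.0499), in 7 of 17 alternatives. In CP2-treated mice the calls of Slc7a1, Tfrc and Slc22a8 stood in 6, 9 and 11 of 17 alternatives. Those of Slc38a5, Slc22a8 and Tfrc were lost with all 3 groups in one edgeR fit. Slco2b1, an organic anion transporter that microglia also express, rose by 0.84 ± 0.08 (adjusted p = 0.000428) and 0.85 ± 0.18 (adjusted p = 0.0188). Slc38a5, a glutamine carrier, rose by 0.96 ± 0.18 (adjusted p = 0.0106) in CP2-treated mice and had 0.80 ± 0.29 (adjusted p = 0.168) in vehicle-treated APP/PS1 mice. Slc22a8, the organic anion transporter OAT3, had 0.38 ± 0.08 (adjusted p = 0.0240) and 0.33 ± 0.16 (adjusted p = 0.310), and Tfrc, the transferrin receptor, 0.25 ± 0.06 (adjusted p = 0.0304) and 0.35 ± 0.09 (adjusted p = 0.0581), in the same order. None of the 17 passed between CP2-treated and vehicle-treated mice.

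Of 23 tested genes of barrier Wnt signalling and endothelial transcription factors, 1 rose and 1 fell in APP/PS1 mice, and 4 rose in CP2-treated APP/PS1 mice against NTG. Fli1, an ETS factor of endothelium that blood and microglial cells also use, rose by 0.57 ± 0.13 (adjusted p = 0.0312) and 0.58 ± 0.12 (adjusted p = 0.0132). Ets1, another ETS factor, rose by 0.46 ± 0.09 (adjusted p = 0.0129) in CP2-treated mice, as did Sox17, an arterial factor, by 0.48 ± 0.13 (adjusted p = 0.0490). The Ets1 call was lost with all 3 groups in one edgeR fit (adjusted p = 0.125), and the Sox17 call stood in 4 of 17 alternatives. Apcdd1, a Wnt inhibitor of barrier endothelium, rose there by 0.61 ± 0.10 (adjusted p = 0.00353). In APP/PS1 against NTG mice, Ets1 differed by 0.24 ± 0.17 (adjusted p = 0.521), Sox17 by 0.27 ± 0.18 (adjusted p = 0.486) and Apcdd1 by 0.49 ± 0.16 (adjusted p = 0.114). Axin2, a feedback target of Wnt signalling in many cell types, fell by 0.32 ± 0.08 on the log2 scale (SE, adjusted p = 0.0395) in APP/PS1 mice, a call that stood in 8 of 17 alternatives and was lost with the covariate. It differed by -0.12 ± 0.08 (adjusted p = 0.436) in CP2-treated APP/PS1 against NTG mice, and by 0.20 ± 0.05 (adjusted p = 0.744) between CP2-treated and vehicle-treated mice.

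Of 16 other endothelial markers, 4 rose in APP/PS1 mice (Eltd1, Gpr116, Pglyrp1 and Ctla2a) and 6 in CP2-treated APP/PS1 mice against NTG (Eltd1, Gpr116, Ctla2a, Ly6a, Nos3 and Clec14a). In APP/PS1 mice the calls of Gpr116 and Pglyrp1 stood in 7 of 17 alternatives each. In CP2-treated mice that of Ly6a stood in 8 of 17, and those of Ly6a, Nos3 and Clec14a were lost with all 3 groups in one edgeR fit. The Eltd1 calls stood in 17 of 17. Eltd1, an adhesion receptor of vessels, rose by 0.36 ± 0.06 (adjusted p = 0.00937) and 0.46 ± 0.06 (adjusted p = 0.00157), and Nos3, the endothelial nitric oxide synthase, by 0.35 ± 0.08 (adjusted p = 0.0241) in the latter. 1 of 5 caveolae genes, Cav2, rose in CP2-treated mice by 0.39 ± 0.08 (adjusted p = 0.0200), and none in APP/PS1 mice. The Cav2 call stood in 15 of 17 alternatives and was lost with all 3 groups in one edgeR fit. Icam1, the leukocyte adhesion molecule, was the 1 gene to pass of 8 tested on its list (7 for CP2-treated mice), by 1.34 ± 0.21 (adjusted p = 0.00373) in APP/PS1 mice and 1.14 ± 0.17 (adjusted p = 0.00270) in CP2-treated mice. Microglia also express Icam1, and the part of the microglial rise was not tested. Over these 7 lists together, 13 of 98 genes (13.3%, against 5.68% of all genes tested) passed in APP/PS1 mice, and none in CP2-treated against vehicle-treated mice. In CP2-treated APP/PS1 mice against NTG, 24 of 97 (24.7%, against 6.02% of all genes tested) passed, 22 of them higher. Leaving out 1 mouse moved the first count to between 7 (without NTG mouse 8, NTG mouse 9 or APP/PS1 mouse 18) and 20 (without APP/PS1 mouse 16), and the third to between 14 (without NTG mouse 10) and 24.

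**Figure D4:**
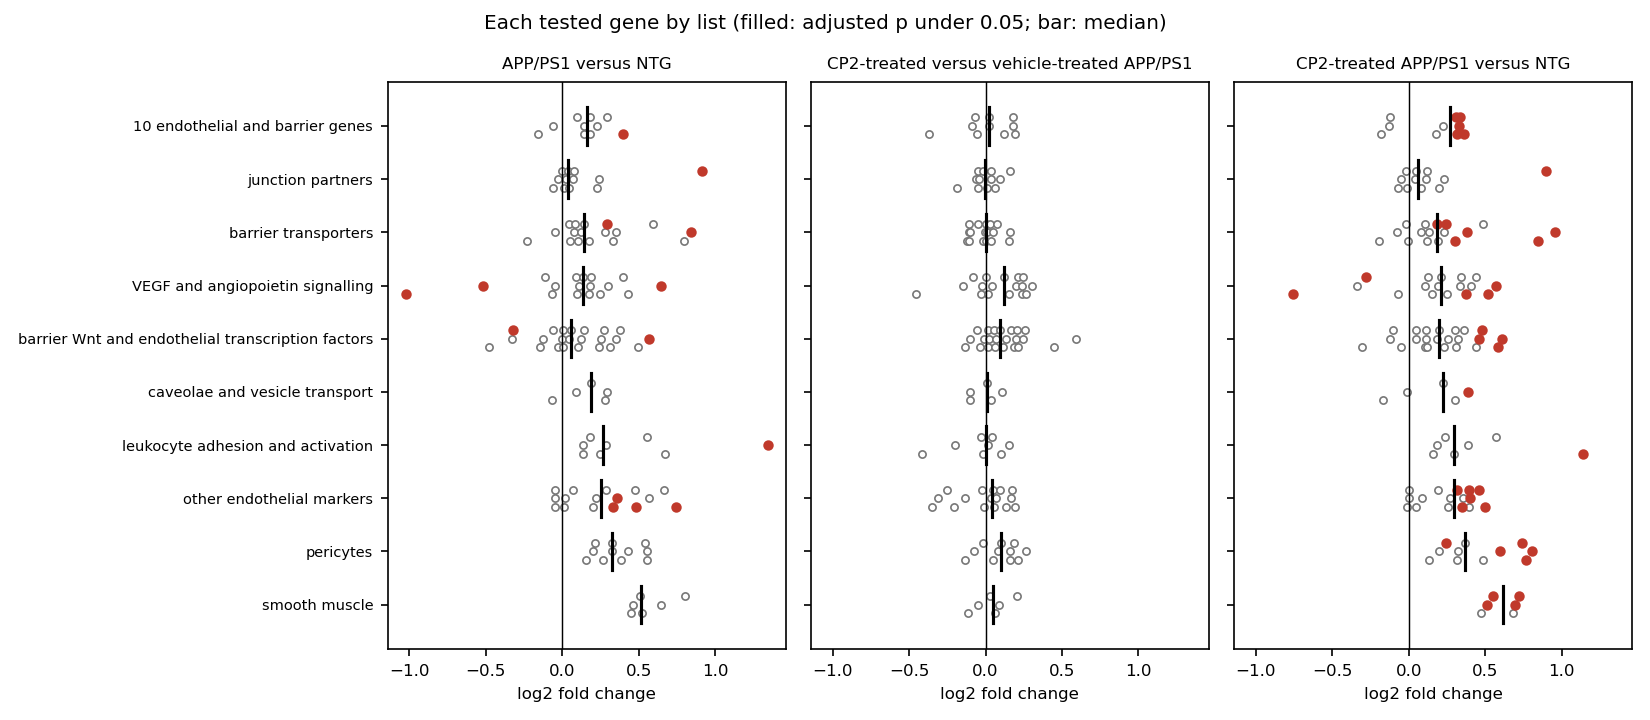
log2 fold change (horizontal axis) of each tested gene of the 10 endothelial and barrier genes and of 9 lists of other vessel genes, in the 3 comparisons. Each point is a gene, filled red where the adjusted p is under 0.05, and the black bar is the list's median. The medians of the smooth muscle list were 0.52, 0.05 and 0.62, and no point is filled in CP2-treated against vehicle-treated mice.

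The lists of the cells that wrap the vessels had higher medians against NTG than any endothelial list. Of 17 tested pericyte and smooth muscle genes, 9 rose in CP2-treated APP/PS1 mice against NTG, where 6.02% of all genes tested passed. In this comparison 17 of 17 had estimates above 0, with a median log2 difference of 0.51. In vehicle-treated APP/PS1 mice, 17 of 17 also had estimates above 0, with a median of 0.45, and none passed in edgeR. Of the 17 genes, 11 had an unadjusted p under 0.05 there, and 7 passed in DESeq2. Over all 16417 genes tested, 18.7% had an unadjusted p under 0.05 in edgeR, and 1667 passed in DESeq2. CP2-treated against vehicle-treated mice gave a median of 0.08, with 0 genes past the adjusted threshold in edgeR or DESeq2 and 0 with an unadjusted p under 0.05 in edgeR. Notch3, the Notch receptor of mural cells, was at 20.6, 19.2, 19.3 and 19.1 CPM in NTG mice, 23.6, 20.9, 36.05, 35.4 and 26.3 in APP/PS1 mice and 32.8, 32.6, 31.3, 31.2 and 33.9 in CP2-treated mice. The 5 CP2-treated mice lay close together between the low and the high APP/PS1 mice, and their difference from NTG was 0.74 ± 0.05 (adjusted p = 8.96e-05). Rgs5, a regulator of G protein signalling and a pericyte marker, was at 58.01, 60.2, 63.6 and 56.1 CPM in NTG, 67.5, 60.7, 125, 83.7 and 92.3 in APP/PS1 and 103, 85.6, 105, 124 and 99.1 in CP2-treated mice, a difference of 0.81 ± 0.09 (adjusted p = 0.000495) for the last against the first. Mouse 18 was the highest APP/PS1 mouse for both. Atp13a5, a pericyte ATPase, rose by 0.60 ± 0.06 (adjusted p = 0.000467), and these 3 calls stood in 17 of 17 alternatives. Without NTG mouse 10 or CP2-treated mouse 24, 3 of the 17 genes passed, and without CP2-treated mouse 23, 10. In APP/PS1 mice up to 4 passed when 1 mouse was left out, that without mouse 16.

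The fibroblast, basement membrane, endfoot and choroid plexus lists gave few calls. None of 8 fibroblast and meningeal genes passed in any comparison. Of 8 basement membrane genes 1 passed in each comparison with NTG, Lamc1, a laminin chain, by 0.31 ± 0.05 (adjusted p = 0.00408) and 0.33 ± 0.06 (adjusted p = 0.0100). In astrocyte endfeet the water channel Aqp4 rose by 0.50 ± 0.12 (adjusted p = 0.0289) in CP2-treated APP/PS1 against NTG mice, and differed by 0.52 ± 0.26 (adjusted p = 0.339) in APP/PS1 against NTG mice. Its call stood in 10 of 17 alternatives and was lost with all 3 groups in one edgeR fit (adjusted p = 0.288). The glutamate transporter Slc1a2 fell by 0.41 ± 0.10 on the log2 scale (SE, adjusted p = 0.0442) and by 0.31 ± 0.07 on the log2 scale (SE, adjusted p = 0.0267), calls that stood in 7 and 9 of 17 alternatives. The 5 listed genes of red blood cells summed to between 82.5 and 152 CPM in NTG, 114 and 471 in APP/PS1 and 137 and 442 in CP2-treated mice. Of the 5, 2, 0 and 1 passed in the 3 comparisons, against 5.68%, 0.00609% and 6.02% of all genes tested. Against NTG, 5 of 5 had estimates above 0, with a median of 1.06 in both transgenic groups. In APP/PS1 mice Hba-a1 rose by 1.77 ± 0.29 (adjusted p = 0.00570) and Hba-a2 by 1.83 ± 0.40 (adjusted p = 0.0233). The part of the red cell genes in the vessel differences was not tested. The choroid plexus list ranged from 21.4 to 1356 CPM over all mice, and none of its genes passed.

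The genes outside the 10 whose levels followed them most closely were ranked by Pearson's correlation of their log2 CPM with the mean standardised level of the 10 genes over the 14 mice. The 8 closest were Flt4 (r = 0.89), Slc22a8 (0.89), Nos3 (0.89), Uaca (0.89), Palm3 (0.88), Art3 (0.87), Ndufa4l2 (0.87) and Icam2 (0.87). Flt4 encodes VEGF receptor 3. The 14 points share 3 groups and the high values of mouse 18. With the group means taken out, r was between 0.83 and 0.89 for these 8 genes. That step keeps mouse 18, and the 8 genes were picked for their high r in the same mice. Neither r is therefore a test of likeness. Of these 8 genes, Flt4 is also on the VEGF and angiopoietin list and Ndufa4l2 on the pericyte list, while Uaca, Palm3 and Art3 are on no list. In CP2-treated APP/PS1 against NTG mice, Flt4 differed by 0.34 ± 0.12 (adjusted p = 0.133), Uaca by 0.32 ± 0.11 (adjusted p = 0.133) and Art3 by 0.43 ± 0.17 (adjusted p = 0.170). None of Flt4, Uaca, Palm3, Art3 and Ndufa4l2 passed in any comparison.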

How the data were processed

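Libraries were made from 200 ng of total RNA with an unstranded poly(A) kit and sequenced as read pairs. Per the labels and the study's methods, the authors aligned reads to mm10 with TopHat2 within the MAP-RSeq pipeline and deposited counts per gene from featureCounts, with a read counted on each gene it overlaps, and RPKM computed by the authors. The counts were tested here, and RPKM was used only to compare levels between genes. Genes with at least 1 CPM in every mouse of 1 group were kept, TMM factors (0.953 to 1.03) were computed, and each pair of groups was fitted alone with the quasi-likelihood test of edgeR 4.0.16 (R 4.3.3), with Benjamini-Hochberg adjustment over all genes tested and a threshold of 0.05. Each mouse is a separate animal, and in 26 pairs within groups no libraries agreed within counting noise. Alternatives were other scalings, DESeq2 1.42.0, limma-voom 3.58.1, other filters, 1 fit of all groups, a covariate and leaving out each mouse. The 10 genes and the lists were chosen with earlier results of these data known. Named genes were all 10, up to 4 genes with the smallest p of each list and any list gene that passed, and the 8 genes most like the 10. 28 columns of values were used. Precision is set by 4 or 5 mice per group; at this depth counting error is small beside the spread between mice.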

Additional observations from a re-analysis of the deposited data

How the results depend on the processing

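No paired analysis was possible because the groups share no replicate numbers. The count of the 10 genes past the adjusted threshold stayed at 1 in APP/PS1 against NTG mice and at 0 in CP2-treated against vehicle-treated mice under every alternative run. In CP2-treated APP/PS1 against NTG mice it fell from 5 to 1 with all 3 groups in one fit and to 3 with the share of Yam1 and AY036118 as a covariate, and ran from 1 to 5 when 1 mouse was left out. At an unadjusted p under 0.05 the covariate left 1 gene in the first comparison and 0 in the second, and leaving out 1 mouse gave 1 to 3 in each. The cause was not tested.

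Counts over the pericyte and smooth muscle lists and over the 7 endothelial and barrier lists were examined under the same alternatives, a choice made after seeing the data. For pericytes and smooth muscle in APP/PS1 mice, 0 became 7 with DESeq2, 3 with limma-voom, 3 with all groups in one fit and 1 with the covariate, and 0 to 4 when 1 mouse was left out; in CP2-treated APP/PS1 against NTG mice, 9 became 4 with all groups in one fit, 4 with the covariate and 3 to 10 with 1 mouse left out. For the 7 lists, 13 became 23 with DESeq2 and 7 to 20 with 1 mouse left out in APP/PS1 mice, and 24 became 13 with all groups in one fit and 14 to 24 with 1 mouse left out in the third comparison. In CP2-treated against vehicle-treated mice all these counts stayed at 0.

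Directions near 0 turned. With the covariate, Mfsd2a in APP/PS1 against NTG mice was -0.0595, and Cldn5 and Abcb1a in CP2-treated against vehicle-treated mice were 0.0104 and 0.0010. When 1 mouse was left out, Cldn5 ranged from -0.218 to 0.0606 and Cdh5 from -0.0076 to 0.169 in APP/PS1 against NTG, and in CP2-treated against vehicle-treated mice Cldn5 from -0.186 to 0.0897, Ocln from -0.0414 to 0.0959, Abcb1a from -0.0858 to 0.0209 and Slco1a4 from -0.0278 to 0.106. Of 520 single values of the 10 genes under alternatives, 475 kept their direction and side of the threshold. Of 1156 such values of list genes that passed, 905 kept the call and 251 lost it. Over all genes the calls rose from 932 to 1667 with DESeq2 and 1563 with limma-voom in the first comparison and from 989 to 1670 with DESeq2 in the third, and were 1, or 23 with DESeq2, 2 with the covariate and 0 with all groups in one fit in the second.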
